A study of Mus musculus with 2 samples.

Results

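The DNA replication and S-phase genes, which a dividing cell transcribes to copy its genome, were measured in 2 mouse cell lines derived from male germ cells. The set held 51 genes, chosen by their known function: the origin recognition complex, the loading factors, the Mcm helicase, its activators, the replicative polymerases, the clamp and its loader, the single-strand binding and lagging-strand factors, 5 enzymes of DNA precursor supply and the maintenance methylation pair Uhrf1 and Dnmt1. Of these, 50 had at least 1 tag that belonged to them alone, out of 14450 genes with such a tag in the whole series, and Fen1 had none.

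The series holds 2 digital gene expression (DGE) libraries, in which each polyadenylated transcript is represented by a 21-base tag that starts at a CATG site. One library came from GC-1spg, a line made from type B spermatogonia of 10-day-old mice with the plasmid pSV3-neo, and the other from GC-2spd (ts), a line made from spermatocytes of 6-week-old mice with the SV40 large T antigen. Both lines therefore carry viral transforming sequences, both were grown in DMEM with serum, and no treatment is named for either. Each line is represented by 1 library, so no difference below has a replicate check, every test compares these 2 libraries and not the conditions, and the intervals cover counting error only. In bulk RNA of this kind, a smaller share of cells in S phase and fewer transcripts per cell cannot be told apart.

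GC-1spg gave 5072149 clean tags and GC-2spd (ts) 4726808, so that 1 copy of a tag was worth 0.197 TPM and 0.212 TPM (copies of a tag scaled to the clean tags of its library). Germ-cell and meiosis markers were nearly absent: 3 of 16 had a tag, and Ddx4, Dazl, Kit, Stra8, Sycp3, Sycp1 and Dmc1 had none. The 3 markers listed summed to 347 tags in GC-1spg against 82 in GC-2spd (ts), most of them from Uchl1 with 329 and 66. Of 8 fibroblast markers, 7 were listed, with sums of 14540 and 7718 tags. Most came from Col1a1 with 10465 and 2425, and Fn1 (2351 and 1211) and Pdgfra (85 and 74) were also lower in GC-2spd (ts). Vim (984 and 2897), Col1a2 (605 and 907), Col3a1 (50 and 120) and Pdgfrb (0 and 84) were higher there. Sertoli markers were listed for 5 of 6 genes, with sums of 1585 and 446 tags. Wt1 and Clu gave most in GC-1spg with 620 and 902 tags against 0 and 262, while Gata4 (29 and 138) and Sox9 (29 and 46) went the other way. Leydig markers were listed for 2 of 4 genes (4 and 5) and peritubular myoid markers for 3 of 3 (61 and 561). Nearly all of the myoid tags came from Acta2 with 50 and 555, while Des had 11 and 4 and Myh11 0 and 2. The part of these other marker genes in the replication values was not tested.

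Replication starts at origins that the origin recognition complex marks in G1, where Cdc6 and Cdt1 load the ring-shaped Mcm2 to Mcm7 helicase. In S phase the kinase Cdc7 with Dbf4, together with Mcm10, Cdc45 and the GINS complex, turns the helicase on, primase and polymerase alpha lay down primers, and polymerases epsilon and delta extend them with the sliding clamp Pcna. Transcription of many of these genes is controlled by E2F factors, which the retinoblastoma protein holds back and which large T antigen is known to release.

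Of the 50 listed genes, 4 passed as higher in GC-2spd (ts), and 0 as lower, at the thresholds of the study, a false discovery rate of at most 0.001 and at least a 2-fold ratio. That is 8% of the listed genes, where 19.5% of all 14450 genes were called, made up of 11.7% higher and 7.84% lower. The 4 were Orc6, the smallest origin recognition subunit, the clamp loader subunits Rfc1 and Rfc3, and Pola1, the catalytic subunit of polymerase alpha. Each is shown by the tag that carried most of its copies, since the tag is what was counted, and the capitals mark the CATG at which the enzyme cuts.
Orc6: CATGgacattagatcaaccat
Rfc1: CATGaaagatgtgtttcgtgg
Rfc3: CATGatgttctgacagccagc
Pola1: CATGgctgatttcagtgctgt
All 4 tags matched without a mismatch at the site nearest the 3′ end of a transcript in the GRCm38 genome. The Orc6 tag lay in the 3′ UTR within exon 7 at chr8:85307839-85307859 on the plus strand, with 488 copies in GC-1spg against 1069 in GC-2spd (ts). The tag of Rfc1 fell in the 3′ UTR within exon 25 at chr5:65261897-65261917 on the minus strand, with 96 and 272 copies. Rfc3 was read from a tag that spans the end of the coding sequence and the start of the 3′ UTR in exon 9, at chr5:151642904-151642924 on the minus strand, with 188 and 408 copies. For Pola1 the tag lay in the 3′ UTR within exon 37 at chrX:93305223-93305243 on the minus strand, with 47 and 92 copies.

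The sums over all tags of each gene were higher in GC-2spd (ts) as well. Orc6 had 502 tags in GC-1spg against 1130 in GC-2spd (ts), which is 99.0 TPM against 239.1 TPM and a log2 ratio of 1.27 (95% interval 1.12 to 1.43). Rfc1 had 163 and 368 tags, giving a log2 ratio of 1.28 (1.01 to 1.55). Rfc3 had 193 and 417 tags, giving a log2 ratio of 1.21 (0.96 to 1.47). The intervals of Orc6 and Rfc1 lay wholly above the 2-fold line at 1, and that of Rfc3 crossed it. Pola1 rested on the fewest tags of the 4, 56 and 107, with a log2 ratio of 1.04 (0.56 to 1.53). Its call was lost when libraries were scaled by edgeR's trimmed mean of M values (TMM), where its log2 ratio was 0.86, and when edgeR's exact test was run with an assumed BCV, the biological coefficient of variation between cultures, of 0.1. With that BCV 16.3% of all genes were called, and with 0.2 and 0.4 it was 6.92% and 1.69%, with none of the 50 replication genes among them.

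**Figure D1:**
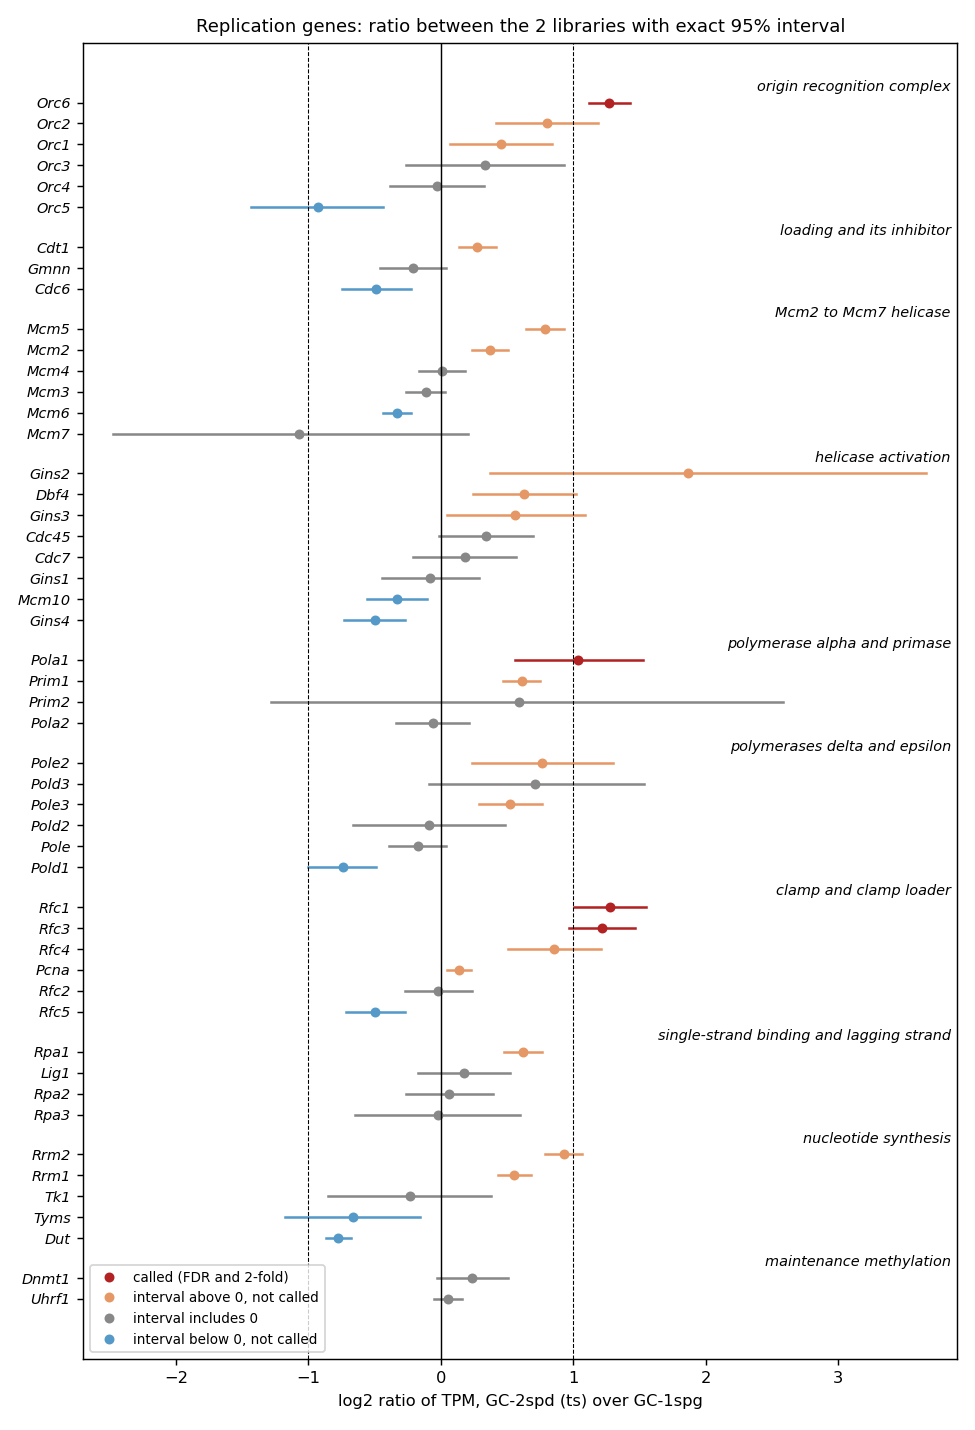
Log2 ratio of TPM, GC-2spd (ts) over GC-1spg (horizontal axis), for the 50 listed replication genes grouped by role, with points for the ratio and bars for the exact 95% interval from tag counts of 1 library per line. Dashed lines mark 2-fold, and Orc6, Rfc1, Rfc3 and Pola1 (dark red) are the 4 genes called, while 21 intervals include 0.

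Most replication genes differed by less than 2-fold between the libraries. A ratio past 2-fold was seen for 6 of the 50, or 12%, against 45.7% of all genes, many of which have few tags. All 50 were listed in both libraries, but only 11373 of the 14450 genes were, and a gene at 0 in 1 library counts as past 2-fold. Of the 7100 genes with at least 100 tags, 1178 were past 2-fold higher and 623 lower. The 6 replication genes include Mcm7 and Gins2, whose main tags are shared with other genes. With sense matches preferred and pseudogenes left out, 4 of 51, or 7.84%, were past 2-fold, against 45.1% of all genes. Among genes with at least 100 tags over both libraries, 4 of 44 replication genes, or 9.09%, were called, against 25.3% of 7100 genes, and intervals lay above 0 for 19 (43.2%, against 44.6%), below 0 for 9 (20.5%, against 26.4%) and included 0 for 16 (36.4%, against 29%). Over all 50, the interval of the ratio lay wholly above 0 for 20 genes (40%, against 30.2% of all genes), wholly below 0 for 9 (18%, against 20.9%) and included 0 for 21 (42%, against 48.9%). The median log2 ratio was 0.18, with quartiles of -0.16 and 0.62, beside a median of 0.21 and quartiles of -0.33 and 0.75 over genes with at least 100 tags.

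Small ratios here depended on scaling. TMM lowered every log2 ratio by 0.17, which put the median of the replication genes at 0.0025 and that of genes with at least 100 tags at 0.037. Ratios above 0 numbered 30 of 50 with scaling to all clean tags and 26 of 50 with TMM. With TMM, intervals lay above 0 for 16 of the 50 genes, below 0 for 13 and included 0 for 21. Cdt1, Orc1, Gins3 and Pcna no longer lay above 0, and Mcm3, Gmnn, Pole and Uhrf1 came to lie below it. Of the 7100 genes with at least 100 tags, 2591 lay above 0 with TMM and 2367 below. Under TMM the calls were 3 higher and 1 lower, with 8.94% of all genes higher and 9.99% lower. The gene called lower under TMM was Orc5.

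Summed over the 50 genes, replication transcripts made up 20685 tags in GC-1spg against 21486 in GC-2spd (ts), or 4078 TPM against 4546 TPM. Single genes ranged from 12 tags over both libraries, for Prim2, to 4188, for Dut. Because a transcript is meant to give 1 tag whatever its length, TPM here counts tags and not reads per length. The 3 genes with the most tags, Dut, Pcna and Mcm6, had at least 1477, 1956 and 1290 tags in each library.

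**Figure D2:**
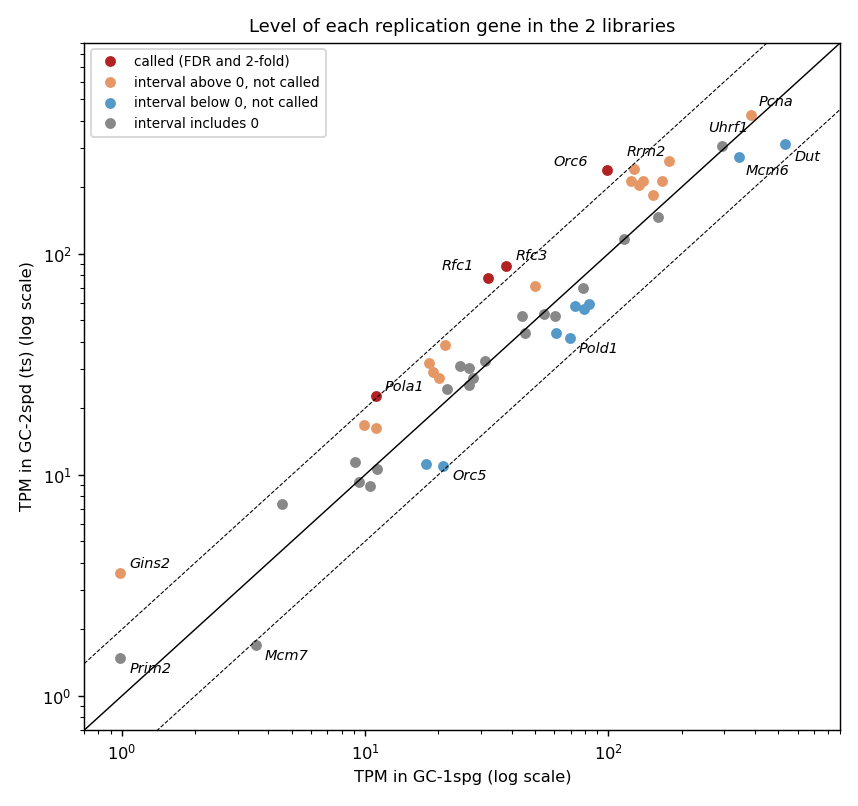
TPM in GC-1spg (horizontal, log scale) against TPM in GC-2spd (ts) (vertical, log scale) for the 50 listed replication genes, 1 library per line, with the solid line at equal levels and dashed lines at 2-fold. The points run along the line of equal levels from Gins2 and Prim2 near 1 TPM to Dut and Pcna at the upper end, with Orc6, Rfc1, Rfc3, Pola1 and the sparsely counted Gins2 above the upper dashed line.

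The origin recognition complex, 6 subunits that bind origins as one particle, was divided between the libraries. Its sum was 990 tags in GC-1spg against 1646 in GC-2spd (ts), and its median log2 ratio was 0.39, with Orc6 giving most of the extra tags. Orc1, the ATPase subunit that is lost and remade each cell cycle, had 102 and 130 tags, giving a log2 ratio of 0.45 (0.07 to 0.84). Orc2 had 93 and 151, a log2 ratio of 0.80 (0.42 to 1.19). Orc5 pointed the other way with 106 and 52 tags, a log2 ratio of -0.93 (-1.43 to -0.43), just short of 2-fold. Orc3 (46 and 54 tags) and Orc4 (141 and 129) had intervals that include 0. The Orc4 tag nearest the 3′ end, also antisense to Acvr2a, was left out of this sum. With sense matches preferred and pseudogenes left out, the interval of Orc4 lay below 0 (-0.53 to -0.013). Within this complex the ratios thus ran from -0.93 to 1.27, and the intervals of Orc5 and Orc6 did not overlap. Of the 7100 genes with at least 100 tags, 44.6% had an interval above 0 and 26.4% below. Intervals on opposite sides of 0 were thus common among genes in general, which holds for the complexes below as well. From the 3′-most sites alone the log2 ratio of Orc2 was -0.098.

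The loading factors differed by small amounts. Cdt1, which brings the Mcm ring to the origin, had 771 and 870 tags, giving a log2 ratio of 0.28 (0.13 to 0.42). Cdc6, the ATPase that works with it, had 310 and 206, a log2 ratio of -0.49 (-0.75 to -0.23). Geminin (Gmnn), the inhibitor of Cdt1, had 305 and 246, a log2 ratio of -0.21 (-0.46 to 0.04). Cdt1 and Cdc6 thus differed between the libraries in opposite directions by more than counting error, and neither reached 2-fold. With TMM the interval of Cdt1 included 0 (-0.039 to 0.24), and that of Gmnn lay below 0 (-0.63 to -0.14).

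The 6 subunits of the Mcm ring, which are needed in equal numbers in the assembled helicase, summed to 911.6 TPM in GC-1spg (4624 tags) against 964.7 TPM in GC-2spd (ts) (4560 tags), without the main Mcm7 tag, which is shared with another gene. Mcm5 had 626 and 1005 tags, giving a log2 ratio of 0.78 (0.64 to 0.93). Mcm2 had 839 and 1011, a log2 ratio of 0.37 (0.24 to 0.50). Mcm6 had 1745 and 1290, a log2 ratio of -0.33 (-0.44 to -0.23). The 3 intervals did not overlap, so as far as counting error goes Mcm5, Mcm2 and Mcm6 did not keep 1 ratio across these libraries. Intervals excluding 0 were common among all genes with at least 100 tags (44.6% above, 26.4% below). Mcm3 (808 and 695 tags) and Mcm4 (588 and 551) had log2 ratios of -0.12 (-0.26 to 0.03) and 0.01 (-0.16 to 0.18). With TMM the interval of Mcm3 lay below 0 (-0.44 to -0.14). Mcm7, with 18 and 8 tags of its own, could not be placed by those tags alone.

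The factors that turn the helicase on gave intervals on both sides of 0. Dbf4, the regulatory subunit of the Cdc7 kinase, had 96 and 138 tags, giving a log2 ratio of 0.63 (0.24 to 1.02). Cdc7 itself had 110 and 116, a log2 ratio of 0.18 (-0.21 to 0.57). Mcm10, which joins the helicase at firing, had 371 and 275, a log2 ratio of -0.33 (-0.56 to -0.10). Cdc45, the helicase cofactor, had 124 and 146 tags and an interval of -0.02 to 0.69 that includes 0. The GINS subunits did not share 1 ratio: Gins3 had 56 and 77 tags (log2 ratio 0.56, 0.05 to 1.08), Gins4 had 402 and 265 (-0.50, -0.73 to -0.27) and Gins1 had 136 and 120 (-0.08, -0.45 to 0.29). Gins2, at 5 and 17 tags, had the largest ratio of all 50 genes, 1.87, with an interval of 0.37 to 3.66 that is too wide for a call.

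Among the priming enzymes no interval lay below 0. Prim1, the catalytic subunit of primase, had 705 and 1003 tags, giving a log2 ratio of 0.61 (0.47 to 0.75). Pola2, the accessory subunit of polymerase alpha, had 231 and 206, a log2 ratio of -0.06 (-0.34 to 0.21), beside 1.04 for its catalytic partner Pola1. Prim2, the large subunit of primase, had 5 and 7 sense tags and 180 and 94 antisense tags, so its sense level was near the floor of 3 copies.

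The extending polymerases gave a split of another kind. Pold1, the catalytic subunit of polymerase delta, had 352 and 196 tags, giving a log2 ratio of -0.74 (-1.002 to -0.49). Pole, the catalytic subunit of polymerase epsilon, had 399 and 329, a log2 ratio of -0.18 (-0.39 to 0.04). Of the accessory subunits, Pole2 had 50 and 79 (0.76, 0.23 to 1.30) and Pole3 253 and 339 (0.52, 0.28 to 0.76). Pole4, the remaining epsilon subunit and not one of the 51 genes, had 272 and 447 (0.82, 0.60 to 1.04). The 3 epsilon accessory subunits thus had intervals above 0, while the interval of the catalytic subunit included 0. With TMM the interval of Pole lay below 0 (-0.57 to -0.14). Pold2 (57 and 50 tags) and Pold3 (23 and 35) were not distinguishable between the libraries at this depth.

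The clamp loader, a ring of 5 Rfc subunits that opens Pcna and closes it around DNA, held 2 of the 4 calls. Rfc4 lay close behind Rfc1 and Rfc3, with 108 and 182 tags and a log2 ratio of 0.85 (0.50 to 1.21). Rfc2 had 275 and 253, a log2 ratio of -0.02 (-0.27 to 0.23). Rfc5 had 422 and 279, a log2 ratio of -0.50 (-0.72 to -0.27). The 5 subunits thus fell into 3 with intervals above 0, 1 that includes 0 and 1 below, and in GC-1spg Rfc5 had the most tags of the 5 while in GC-2spd (ts) Rfc3 did. From the 3′-most sites alone the log2 ratio of Rfc5 was 0.28, with an interval that includes 0 (-0.16 to 0.72). Pcna had 1956 and 2001 tags, giving a log2 ratio of 0.13 (0.04 to 0.23) that fell to -0.039 with TMM.

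Of the single-strand binding protein RPA, whose 3 subunits coat unwound DNA, the largest subunit Rpa1 had 678 and 969 tags, giving a log2 ratio of 0.62 (0.47 to 0.76). Rpa2 had 158 and 154 (0.06, -0.26 to 0.39) and Rpa3 48 and 44 (-0.02, -0.65 to 0.60). The interval of Rpa1 lay above that of Rpa2, so as far as counting error goes the RPA transcripts too did not share 1 ratio. Lig1, the ligase that seals Okazaki fragments, had 136 and 143 tags, giving a log2 ratio of 0.17 (-0.17 to 0.52).

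Precursor supply was divided as well. Ribonucleotide reductase makes deoxynucleotides, and both its large subunit Rrm1 and its S-phase subunit Rrm2 had more tags in GC-2spd (ts). Rrm1 had 904 and 1237, a log2 ratio of 0.55 (0.43 to 0.68). Rrm2 had 646 and 1145, a log2 ratio of 0.93 (0.79 to 1.07), just short of 2-fold. Dut, which destroys dUTP and so keeps uracil out of DNA, went the other way with 2711 and 1477 tags, or 534.5 TPM against 312.5 TPM, a log2 ratio of -0.77 (-0.87 to -0.68). No other replication gene had a larger difference in tags. Tyms, which makes dTMP, had 90 and 53 tags of its own (-0.66, -1.18 to -0.16) and the thymidine kinase Tk1 had 53 and 42 (-0.23, -0.85 to 0.38), and both values depended on how pseudogenes were treated.

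Maintenance methylation copies CpG methylation onto the new strand. Uhrf1, which recognises hemimethylated CpG, had 1489 and 1443 tags, giving a log2 ratio of 0.06 (-0.05 to 0.16), and Dnmt1, the methyltransferase it recruits, had 224 and 246, a log2 ratio of 0.24 (-0.03 to 0.50). Both intervals exclude a 2-fold difference in either direction as far as counting error goes. With TMM the value for Uhrf1 was -0.12.

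The tags also show which CATG site of a transcript was read. The 50 genes were read from 369 distinct tags, and 75.6% of their copies came from the site nearest the 3′ end of a transcript. The main tag lay in a 3′ UTR for 35 genes and in the coding sequence for 11. The use of the main tag against a gene's other tags was compared between libraries by Fisher's exact test in every gene with at least 20 copies in each. It was called shifted, at a false discovery rate of at most 0.001 and a change of at least 10 percentage points, in 6.44% of 7645 genes and in 2 of 46 replication genes, Pcna and Mcm4. Their tags are given because the shift lies between neighbouring sites of 1 exon. According to the study, a tag may come from an inner site through incomplete digestion by the enzyme or through alternative splicing. Neither was tested here.
Pcna, second site from the 3′ end: CATGaatgtttctgctttaca
Pcna, site nearest the 3′ end: CATGgctactgaatagttata
Mcm4, site nearest the 3′ end: CATGctgtatgtagaggctat
Mcm4, second site from the 3′ end: CATGcatgctgtatgtagagg
The Pcna tags lie in the 3′ UTR within exon 6, the inner at chr2:132249378-132249398 and the outer at chr2:132249243-132249263. The inner tag had 1247 copies in GC-1spg against 1502 in GC-2spd (ts), or 63.8% and 75.1% of the gene's tags, while the outer tag had 696 and 488. So the near-equal sum for Pcna was made of one tag that was higher in GC-2spd (ts) and another that was lower, and its log2 ratio from the 3′-most sites alone was -0.42. The Mcm4 sites overlap, the second starting 4 bases further from the 3′ end, in the 3′ UTR within exon 16, the inner at chr16:15624340-15624360 and the outer at chr16:15624336-15624356. The outer Mcm4 tag had 431 and 329 copies, or 73.3% and 59.7%, and the inner had 120 and 190.

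Rrm2 held a pair of tags 1 base apart that were split between the libraries, a pattern noticed only after the tags had been listed. Its 5 most copied tags are given because 3 of them were found in 1 library only, and the capital after the CATG of the third tag marks a mismatch to the reference.
Rrm2, second site: CATGaactgacataaccctga
Rrm2, site nearest the 3′ end: CATGgcatacaagtattaaat
Rrm2, inner site, 1 mismatch: CATGcagAgtctacttaacaa
Rrm2, inner site: CATGcagggtctacttaacaa
Rrm2, coding sequence: CATGtcgaattcgacagagaa
The second-site tag, at chr12:24713969-24713989, had 216 copies in GC-1spg against 377 in GC-2spd (ts), and the coding tag, at chr12:24713184-24713204, had 120 and 170. At the inner site, chr12:24713602-24713622, GC-1spg had 300 copies that differ from the reference by G8A, counted from 1 at the C of CATG, and 0 of the reference tag. GC-2spd (ts) had 0 copies with that base and 270 of the reference tag, so the site was read about as often in both libraries with a different base in each. The tag nearest the 3′ end, at chr12:24714102-24714122, had 0 and 304 copies, where a count of 0 allows up to 3 copies. A pair of tags 1 base apart at 1 site, each with at least 20 copies in 1 library and 0 in the other, was found in 91 of 7645 genes, or 1.19%, and in Rrm2 as 1 of 46 replication genes. Tags seen in 1 library only were not limited to Rrm2: a minor Orc6 tag had 0 and 30 copies. A 3′-most Rfc5 tag, also antisense to Wsb2 and so left out of the Rfc5 sum, had 0 and 52. The tag of the next Rfc5 site, left out in the same way, had 44 and 2. The ratio of Rrm2 turned on this: when mismatches were not allowed it had 341 and 1138 tags and was called, and from the 3′-most site alone it had 10 and 329 and was called.

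**Figure D3:**
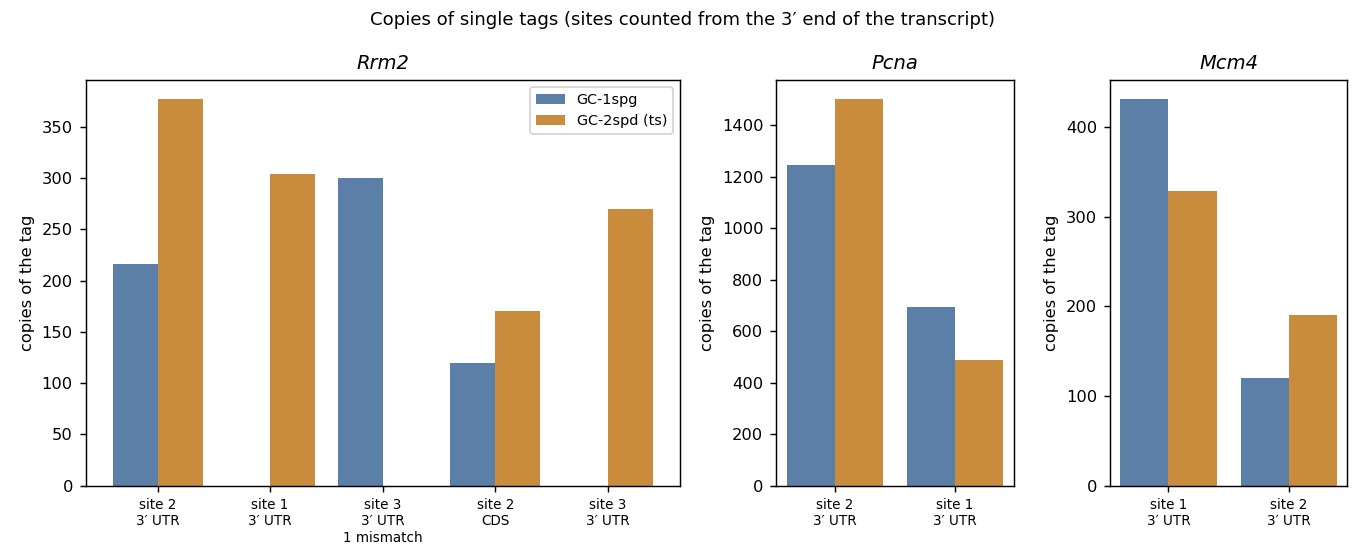
Copies (vertical axis, from 0) of the 5 most copied Rrm2 tags and the main pair of tags of Pcna and Mcm4 in GC-1spg (blue) and GC-2spd (ts) (orange), 1 library each, with the number of the site, counting back from the 3′ end, below each pair of bars. In Rrm2, 3 tags appear in 1 library only (0 and 304, 300 and 0, 0 and 270 copies), and in Pcna and Mcm4 the paired tags differ between libraries in opposite directions.

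Several replication genes share their main tag with another gene, and the tag is then assigned to neither. The tags are shown for 4 such genes.
Mcm7, also antisense to Cops6: CATGctgcacttttttattct
Tyms, also in Tyms-ps: CATGattgcacatatcacagg
Tk1, also in Gm6091: CATGgagtgcttccgagaagc
Fen1, also antisense to Gm10143: CATGgactgcctcacttttgg
The Mcm7 tag, in the 3′ UTR within exon 15 at chr5:138164623-138164643, had 649 copies in GC-1spg against 760 in GC-2spd (ts), against 18 and 8 for the tags of Mcm7 alone. When sense matches were preferred and pseudogenes left out, an alternative chosen after the data had been seen, 51 of 51 genes were listed and 4 were called (7.84%, against 19.6% of 15132 genes), again Orc6, Rfc1, Rfc3 and Pola1. Mcm7 then had 687 and 786 tags, giving a log2 ratio of 0.30 (0.15 to 0.45) in place of -1.07 (-2.48 to 0.21). Tyms had 306 and 534, a log2 ratio of 0.91 (0.70 to 1.11) in place of -0.66, its shared tag alone giving 212 and 477. Tk1 had 423 and 532, a log2 ratio of 0.43 (0.25 to 0.62) in place of -0.23. The direction for Mcm7, Tyms and Tk1 was therefore set by whether the shared tag was counted, and which gene made the shared copies was not tested. Gins2 went from 5 and 17 tags to 222 and 343, and its log2 ratio from 1.87 to 0.73 (0.48 to 0.98). Fen1, the flap endonuclease of lagging-strand processing, had 392 and 367 tags under this rule, a log2 ratio of 0.01. Pcna, whose coding-sequence tag it shares with Pcna-ps2 (600 and 319 copies), had 2589 and 2334 tags, giving a log2 ratio of -0.05 (-0.13 to 0.03). Orc2 (196 and 224 tags) and Orc4 (285 and 220) moved to 0.29 (0.011 to 0.58) and -0.27 (-0.53 to -0.013). Intervals then lay above 0 for 22 genes, below 0 for 9 and included 0 for 20.

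**Figure D4:**
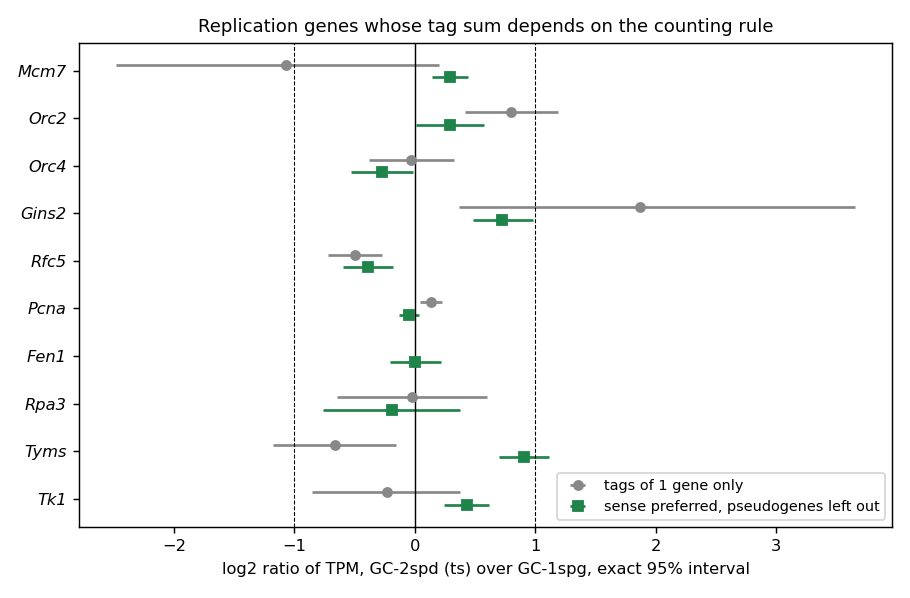
Log2 ratio of TPM with exact 95% interval for the 10 replication genes whose tag sum changed by over 1.1 times, or that gained their first tag (Fen1), between tags of 1 gene only (grey circles) and sense matches preferred with pseudogenes left out (green squares), 1 library per line. Mcm7, Tyms and Tk1 move from the left of 0 to the right of it, and Gins2 narrows to 0.73.

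Genes next to the replication machinery gave mixed counts. Of all genes, 11.7% were called higher and 7.84% lower. Among genes with at least 100 tags 25.3% were called, and the median log2 ratio was 0.21. Of 24 other fork and origin factors, 23 were listed, 4 were called higher and 2 lower, with a median log2 ratio of 0.21. The 4 were Tipin, a partner of Timeless in fork protection (241 and 487 tags, 1.12, not called under TMM), the checkpoint mediator Clspn (24 and 62, 1.47), Mcm9 (16 and 44, 1.56, not called under TMM) and Rnaseh2a, the catalytic subunit of RNase H2 (31 and 94, 1.70). The 2 called lower were Mcm8, the partner of Mcm9 in a recombination helicase, with 163 and 74 tags (-1.04), and Pold4, the smallest subunit of polymerase delta, with 143 and 47 tags (-1.50). Pold1 and Pold4, 2 of the 4 polymerase delta subunits, thus both had intervals below 0. Those of the other subunits, Pold2 (log2 ratio -0.09) and Pold3 (0.71), included 0.

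Of 11 chromatin assembly genes, 1 was called higher and 1 lower, where 11.7% of all genes were called higher and 7.84% lower. Asf1b, a chaperone of histones H3 and H4, had 164 tags in GC-1spg against 890 in GC-2spd (ts), with a log2 ratio of 2.54 (2.30 to 2.79), larger than that of any of the 50 replication genes. Hells, a remodeller linked to DNA methylation, had 1281 and 575, a log2 ratio of -1.05 (-1.20 to -0.91). Among 18 listed genes of other nucleotide synthesis none was called, and 7 intervals lay above 0 and 7 below. Of all genes, 30.2% had intervals above 0 and 20.9% below. In the nucleotide list Paics was closest to a call with 2918 and 1377 tags (-0.98), which became a call under TMM.

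Regulators of the step from G1 into S phase and genes of mitosis were counted in the same way. Of all genes, 30.2% had an interval above 0 and 11.7% were called higher. Among the 7100 genes with at least 100 tags, 44.6% had an interval above 0 and 1171 were called higher. Of 14 G1/S regulators, 9 had intervals above 0 and 0 below, with a median of 0.61, and with TMM it was 8 and 0, with a median of 0.44. Cyclin A2 (Ccna2) was called, with 107 and 229 tags (1.20, 0.86 to 1.54), and E2f1 had 217 and 376 (0.89, 0.65 to 1.14). Of 17 mitosis genes, 13 had intervals above 0 and 1 below, with a median of 0.45, and 4 were called higher: the proliferation antigen Mki67 (295 and 939 tags), the spindle motor Kif11 (144 and 341) and the kinetochore proteins Cenpe (64 and 181) and Cenpf (75 and 243). With TMM, 8 of the 17 intervals lay above 0 and 2 below, with a median of 0.28, and 4 were called higher. Under TMM 25.3% of all genes lay above 0, and 2591 of the 7100 with at least 100 tags. Survivin (Birc5) had 2357 and 1361 tags (-0.69). These lists share the 2 libraries with the replication genes, and the difference between lists was not tested.

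**Figure D5:**
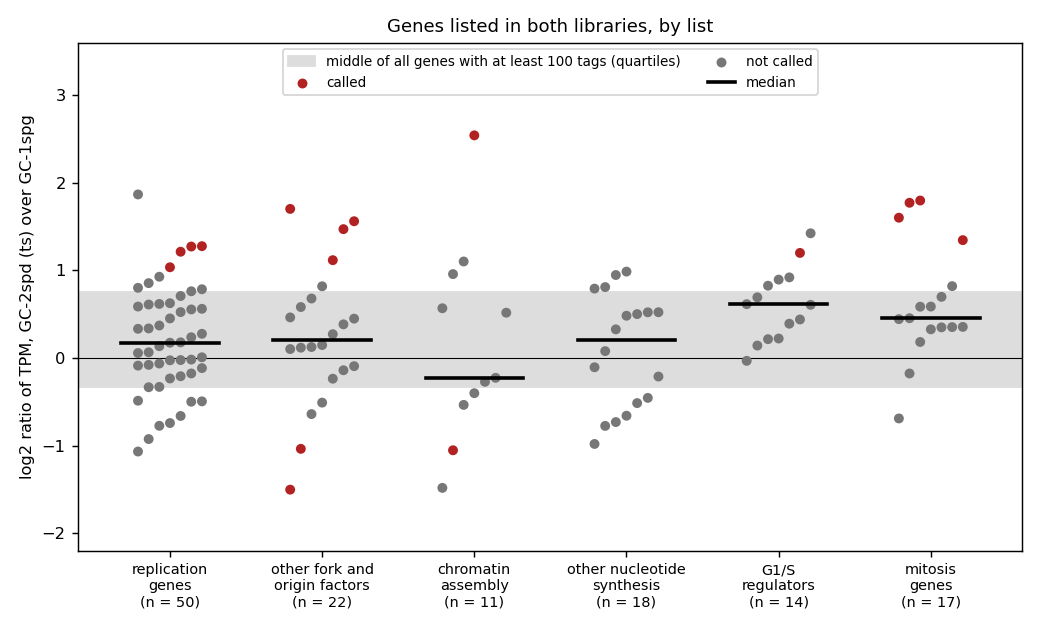
Log2 ratio of TPM, GC-2spd (ts) over GC-1spg (vertical axis), for each gene listed in both libraries, by list, with called genes in red, medians as bars and the quartile range of genes with at least 100 tags (-0.33 to 0.75) shaded. The median is 0.18 for the 50 replication genes, 0.61 for the G1/S regulators and 0.45 for the mitosis genes.

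The promoters of the replication genes were searched in the RefSeq windows of GRCm38.p6, which hold the 250 bases before and the 50 after each start, for an E2F-like motif, TTT followed by 2 bases that are each C or G and then CGC, on either strand. Of 51 genes, 43 had a window, and 17 of them (39.5%) held the motif, against 2.61% of 27025 genes in the table. Counted by window, it was in 17 of 55 (30.9%) against 2.26% of all windows. The CHR-like motif TTTGAA was in 18.6% of the 43 genes and 20.2% of all genes, and CCAAT was in 58.1% and 41.1%. Stretches around 1 match to the motif, in capitals, are given on the strand of the gene. They are from the 2 called genes that hold the motif and from Mcm5 and Mcm6, whose transcripts differed between libraries in opposite directions. Rfc3, Mcm5 and Mcm6 hold further matches, and in Mcm5 and Mcm6 a further match overlaps the capitals.
Rfc3, chr5:151651203-151651226: tcgcacgcTTTCGCGCtcgcggga
Pola1, chrX:93632278-93632301: atcacaggGCGCCAAAtgcactcc
Mcm5, chr8:75109348-75109371: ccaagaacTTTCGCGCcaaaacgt
Mcm6, chr1:128359800-128359823: cgtatgctTTTGGCGCgaaaagtg
The 17 genes with the motif had a median log2 ratio of 0.28 and ran from -1.07 to 1.21, and the 25 listed genes with a window but without it had a median of 0.18 and ran from -0.93 to 1.28, and each group held 2 of the 4 calls. The -1.07 is that of Mcm7. With sense matches preferred and pseudogenes left out, the genes with the motif had a median of 0.30 and ran from -0.74, for Pold1, to 1.21, and those without it had a median of 0.34, so the order of the medians depended on the counting rule. The difference between the groups was not tested. A match is a run of letters in a window and was not tested for binding.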

How the data were processed

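Total RNA of each line was made into an NlaIII and MmeI tag library and sequenced by the authors. The deposited lists start at 2 copies, since the authors kept no singletons, and had been cleaned of adaptor and poor reads. The deposited files list each 21-base tag with its copy count and a TPM value, which the authors scaled to the clean tags of the library. The tool versions and genome build behind these files are not given in the sources used here. Tags were matched again to the GENCODE M21 transcripts (GRCm38), with at most 1 mismatch and exact matches first. A tag was assigned where its best matches, sense and antisense, belonged to 1 gene, and sense counts were summed and divided by all clean tags. The study's own UniGene reference was not used here. No repeated libraries exist, so edgeR's quasi-likelihood test could not be fitted. The two-sided Audic-Claverie exact test was used instead, with Benjamini-Hochberg adjustment over 14450 genes, calls where the false discovery rate did not exceed 0.001 and the ratio was 2-fold or more, and 0.01 TPM for a gene at 0. Intervals are exact 95% conditional binomial (Clopper-Pearson). PCR copies of 1 molecule cannot be separated, so intervals and the floor of 3 counts cover counting error only. Python 3.11.15, scipy 1.17.1, pandas 2.3.3 and edgeR 4.0.16 in R 4.3.3 were used, and the steps were tested on simulated data. Alternatives were exact matching, the 3′-most site, the longest transcript, sense preference, no pseudogenes, 2 other scalings, a minimum of 10 tags, 0.5 added tags, a binomial test and an edgeR exact test at an assumed biological coefficient of variation (BCV) of 0.1, 0.2 or 0.4. Every replication gene was named by role, with values for all that were called or whose interval excludes 0. The genes and lists were chosen with earlier results of these data known.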

Additional observations from a re-analysis of the deposited data

How the results depend on the processing

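Counting error is the only error these 2 libraries can show, and the calls depended on what was assumed beyond it. With edgeR's exact test and an assumed BCV of 0.1, 3 replication genes were called (Orc6, Rfc1 and Rfc3) and 2355 genes overall. With a BCV of 0.2, 0 replication genes were called, 0 of them higher, with 6 (12%, against 28.3% of all genes) at an unadjusted p under 0.05, and 1000 genes overall (511 higher, 489 lower). With a BCV of 0.4, 0 were called, with 0 (against 12.7%) at an unadjusted p under 0.05, and 244 overall (108 higher, 136 lower). The Audic-Claverie and binomial tests both gave 4 calls and 29 of 50 replication genes (58%) at an unadjusted p under 0.05, against 52.5% and 52.3% of all genes. Scaling by TMM or to unambiguous sense tags gave 1 call lower, Orc5, ended the call of Pola1, and TMM put the median at 0.0025. Shifted tag use was called in 427 of 5945 genes and 2 of 43 replication genes with at least 50 copies, and in 403 of 7363 and 3 of 46 with exact matching. The E2F-like share of the 43 genes was 23.3% in the 200 bases before the start, against 1.83% of all genes in that window. No paired analysis was possible because each line has 1 library.

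Log2 ratios that changed sign were these. TMM gave Mcm4 -0.17, Pcna -0.039, Rpa2 -0.11 and Uhrf1 -0.12, and scaling to sense tags gave Mcm4 -0.076, Rpa2 -0.019 and Uhrf1 -0.027. The 3′-most site gave Mcm4 -0.29, Orc2 -0.098, Rfc5 0.28, Pcna -0.42 and Rpa2 -0.015. The longest transcript gave Mcm2 -6.30, Pola2 0.91, Prim2 -0.64 and Tk1 0.22. The Mcm2 value there came from the 0.01 TPM set for a count of 0 in GC-2spd (ts), so it is not a measured ratio. In the main setting Mcm2 had 839 and 1011 tags. Sense preference gave Mcm7 0.30. Without pseudogenes, Pcna was -0.048, Tyms 0.91 and Tk1 0.43, and with both choices together, added after the data had been seen, Mcm7 was 0.30, Pcna -0.048, Tyms 0.91 and Tk1 0.43. By construction, the site, transcript and pseudogene settings count other tags, and the scalings shift all genes alike.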
